A study of Macaca mulatta with 24 samples.

Results

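The interferon-stimulated antiviral genes were followed in the ileum of rhesus macaques after total-body irradiation (TBI). The list holds 47 genes that interferon induces, chosen by name, and a member is the brightest probe over all 24 arrays that carries its symbol. A probe with the symbol was found for 37 of the 47, of 16094 distinct symbols on the array. IRF9, OAS3, IFITM2, HERC5, HERC6, USP18, TRIM25, IFI44, SAMD9L and SP110 have no probe with that symbol in the table used here and were dropped. IFI44L was well above background on 14 of 24 arrays and on every array of no group, so it was not tested, and 36 members remained. Of these, 35 were well above background on all 24 arrays and RSAD2 on 23.

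All 24 animals were young-adult males. Of these, 20 received whole-body cobalt-60 gamma rays once, at 6.7 Gy or 7.4 Gy, and the other 4 were handled as shams. For each dose, ileum was taken from 4 animals at day 4, from 4 at day 7 and from 2 at day 12, with 1 Agilent single-color array per animal, and the precision of every value is limited by these numbers. The last time point is day 12 in the titles, the day field and the paper but 21 days in the labels' protocol, and it is called day 12 here. The 4 unirradiated animals are labelled day 4 and served as controls for every group, so all comparisons with controls share them. RNA was taken from the whole gut wall, and in such tissue fewer cells of a type and less RNA per cell cannot be told apart. Of the ileal enterocyte markers, FABP6, SLC10A2, APOB, VIL1, EPCAM and KRT20 were above background on all 24 arrays, and FABP2 was above background on 10. There were 6 slides of 4 arrays, and all 4 day 12 arrays lie in position 4, with 2 of the 8 day 7 arrays. On slides 3 to 6 a day 7 and a day 12 array of the same dose lie side by side. The day 7 and day 12 groups share no position with the controls, so position and group cannot be told apart in those comparisons. The same holds for day 7 against day 4. All arrays of day 4 after 7.4 Gy lie in position 2 and all controls in position 1. A position covariate in that comparison rests on day 4 after 6.7 Gy, which lies in both. The share of probes well above background was 72.7% to 88.1% over the arrays.

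Interferons are secreted proteins that cells release when they sense foreign or misplaced nucleic acid. Interferons bind receptors on the cell surface, and JAK kinases at these receptors activate transcription factors that enter the nucleus. These factors switch on a shared set of genes whose products sense viral RNA or DNA, block viral entry, stop translation, degrade RNA or attach the ubiquitin-like protein ISG15 to other proteins. In the gut the epithelium and resident immune cells keep part of this program on without infection. No sequence of a member is given here.

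Levels are log2 intensities minus the 75th percentile of the array, so that 0 is the 75th percentile and 1 unit is a 2-fold difference. Differences were tested with limma in 1 fit of all 24 arrays, and adjusted p is its moderated p-value, adjusted by Benjamini-Hochberg across the 36108 tested probes. A probe was called where the adjusted p was below 0.05 and the groups differed at least 2-fold.

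Day 12 was compared with day 7 to see how the antiviral program stood late after TBI, and the members mostly had small positive differences. With both doses pooled, 35 of 36 members had a difference above 0, beside 55.7% of all tested probes. The median difference of the members was 0.59, beside 0.04 for all tested probes. Only OASL passed the test, 1 of 36 members, where 0.0886% of all probes were called higher, and no member was called lower, where 0.0249% of probes were. At an unadjusted limma p under 0.05, 15 of 36 members were higher and 0 lower, beside 8.35% and 6.06% of all probes. In 5 members, OASL, OAS2, PARP9, ISG20 and XAF1, all 4 animals of day 12 lay above all 8 of day 7, a separation seen in 1.45% of all probes.

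**Figure D1:**
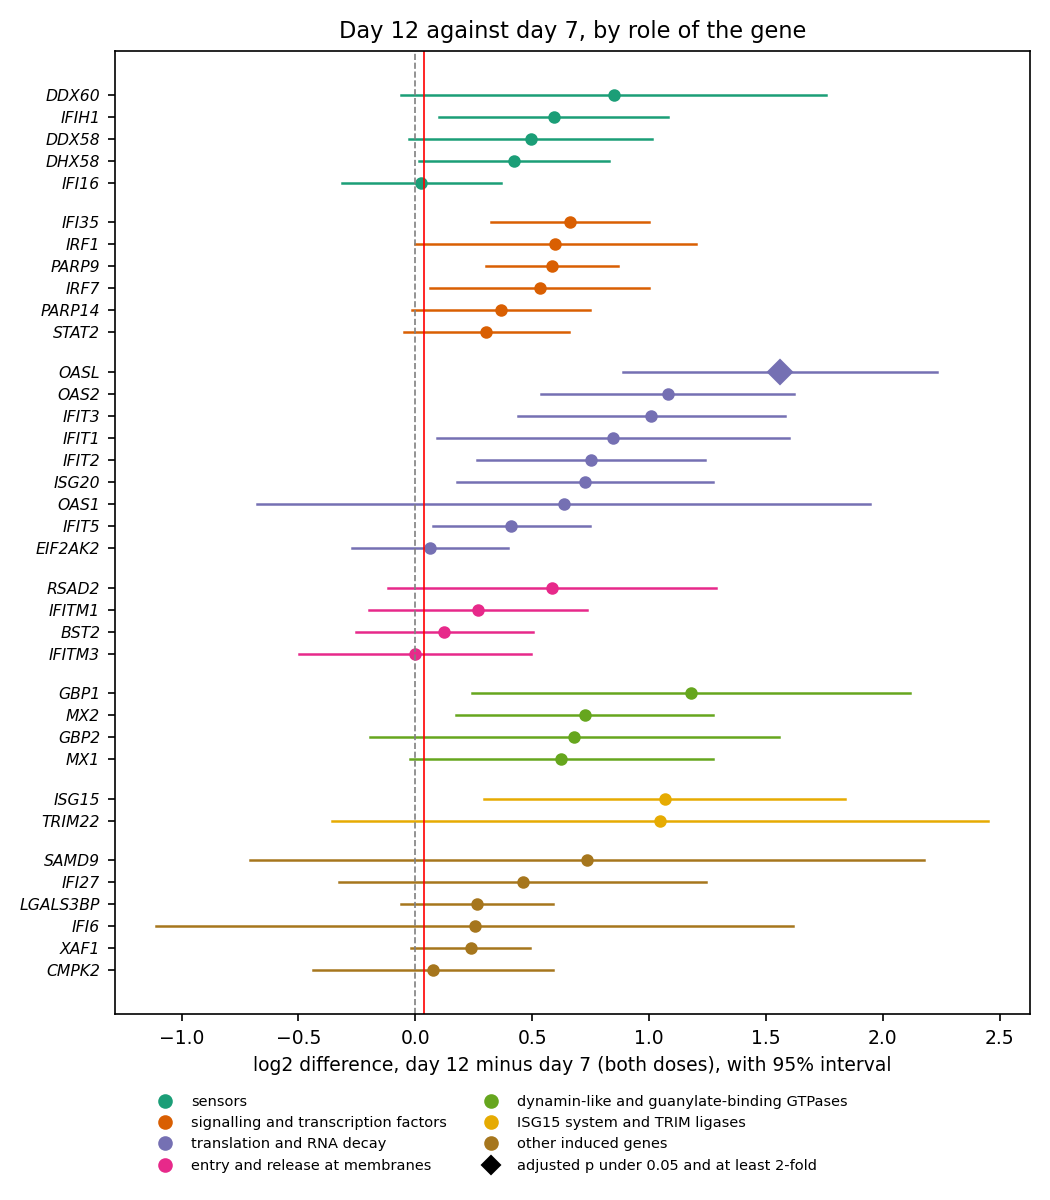
Difference of day 12 minus day 7 with both doses pooled (log2, horizontal axis) for each of the 36 tested members, coloured by role. Points are limma estimates from 4 animals of day 12 and 8 of day 7, bars are 95% intervals, the diamond marks the called gene, the dashed line is 0 and the red line is the median of all tested probes (0.04). All points but IFITM3 lie right of 0, and OASL lies farthest right at 1.56.

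OASL, an OAS family member that binds RNA but lacks the synthetase activity of its relatives, had the largest difference among the members. Its level was -0.24 and -0.51 in the 2 animals of day 12 of the lower dose and 0.34 and 0.79 in those of the higher dose. In the 8 animals of day 7 it ran from -2.70 to -0.73 with a median of -1.46. The 4 animals of day 12 therefore lay above every animal of day 7, and the 2 of the higher dose above every control (-0.14, -0.61, -0.90 and -1.52). The difference of day 12 minus day 7 was 1.56 ± 0.32 (SE), which is 2.95-fold, with a 95% interval of 0.89 to 2.23 and a limma adjusted p of 0.0446. The call was kept in 10 of 24 alternative settings, with adjusted p from 0.0353 to 0.200. It was lost, among others, with slide as a block (adjusted p 0.0914) and with array position as a covariate (adjusted p 0.200), while the difference stayed between 1.34 and 2.04. Leaving out any 1 of the 4 animals of day 12 also ended it, with adjusted p from 0.102 to 0.163, and so did leaving out day 7 replicates 1, 2 or 3 after 6.7 Gy or replicates 3 or 4 after 7.4 Gy, with adjusted p from 0.0514 to 0.0877.

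OAS2, a synthetase of the 2-5A messenger that turns on RNase L, stood at -3.33 and -3.64 in the day 12 animals of the lower dose and at -3.50 and -2.998 in those of the higher dose. The 8 animals of day 7 ran from -4.90 to -3.80 (median -4.53) and the controls lay at -3.92, -4.20, -4.47 and -3.53. Day 12 and day 7 did not overlap. The difference was 1.08 ± 0.26 (SE) with an interval of 0.54 to 1.62, and it did not pass the limit (limma adjusted p 0.0749). Over 24 alternative settings it ran from 0.55 with normexp background correction to 1.32 with slide as a block, and it was called in 0 of them. OAS1, another synthetase of the family, varied widely from animal to animal, from -2.22 in an animal of day 7 to 2.17 in an animal of day 4, and its difference of 0.64 was about as large as its SE of 0.63.

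The IFIT proteins bind viral RNA and restrain its translation. IFIT3 had levels of -1.14 and -1.55 on day 12 at the lower dose and -0.55 and -0.48 at the higher dose, and from -2.61 to -1.04 (median -2.12) in the 8 animals of day 7. The controls lay at -0.91, -1.89, -1.83 and -1.46. Only the 2 animals of the higher dose were above all animals of day 7, and the pooled difference was 1.01 ± 0.27 (SE; interval 0.44 to 1.58; limma adjusted p 0.115). IFIT1, IFIT2 and IFIT5 had differences of 0.85, 0.75 and 0.41, none of which was called. Of the 9 tested members that act on translation and RNA decay, 1 was called and 7 were higher at an unadjusted p under 0.05, beside 0.0886% and 8.35% of all probes. The remaining 2 were OAS1 and the RNA-activated kinase EIF2AK2, which had a difference of 0.06. ISG20, an exonuclease that degrades RNA, lay between 0.88 and 1.04 on day 12 and between -0.16 and 0.84 on day 7, with a difference of 0.73 (adjusted p 0.223). On its dimmer probe the days overlapped and the difference was 0.42 (adjusted p 0.515).

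GBP1 is a guanylate-binding GTPase that attacks the membranes around intracellular microbes. On day 12 it stood at 0.36 and -0.51 at the lower dose and at -0.28 and 1.06 at the higher dose, against -1.42 to -0.34 (median -1.13) on day 7. The controls lay at 0.32, -0.79, -0.17 and -1.16, so they overlapped both days. The difference of 1.18 ± 0.45 (SE; interval 0.24 to 2.12) was not called (adjusted p 0.245). A second GBP1 probe gave 1.11. The other members of this role are GBP2 and the dynamin-like GTPases MX1 and MX2, which trap viral cores and nucleoproteins, with differences of 0.68, 0.63 and 0.72 and no call. The 2 dimmer GBP2 probes gave 1.03 and 1.99, the latter with an adjusted p of 0.0564, so the probes of this gene differ in size and share the direction.

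ISG15 is released or attached to newly made proteins during infection. It stood at 3.15 and 2.11 on day 12 after the lower dose and at 3.18 and 3.16 after the higher dose. On day 7 it lay between 1.17 and 2.39 (median 1.87), and in the controls at 4.53, 2.72, 2.50 and 3.45. Of the day 12 animals 3 were above all of day 7 and 1 was within its range, and the difference of 1.07 ± 0.37 (SE; interval 0.29 to 1.84) was not called (adjusted p 0.206). TRIM22, a ligase of the TRIM family that restricts retroviruses, had 0.52, 0.12, 0.41 and 1.46 on day 12 and -2.20 to 1.24 (median -0.33) on day 7. Its difference of 1.05 had an interval of -0.36 to 2.45 and was not called (adjusted p 0.487). The controls of TRIM22 lay at -0.61, 0.84, 2.68 and 4.35, the widest control range of all members. With its 2 dimmer probes the difference of day 12 minus day 7 was -0.01 and 0.15, so the value of the brightest probe is not shared by the other probes of the gene.

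**Figure D2:**
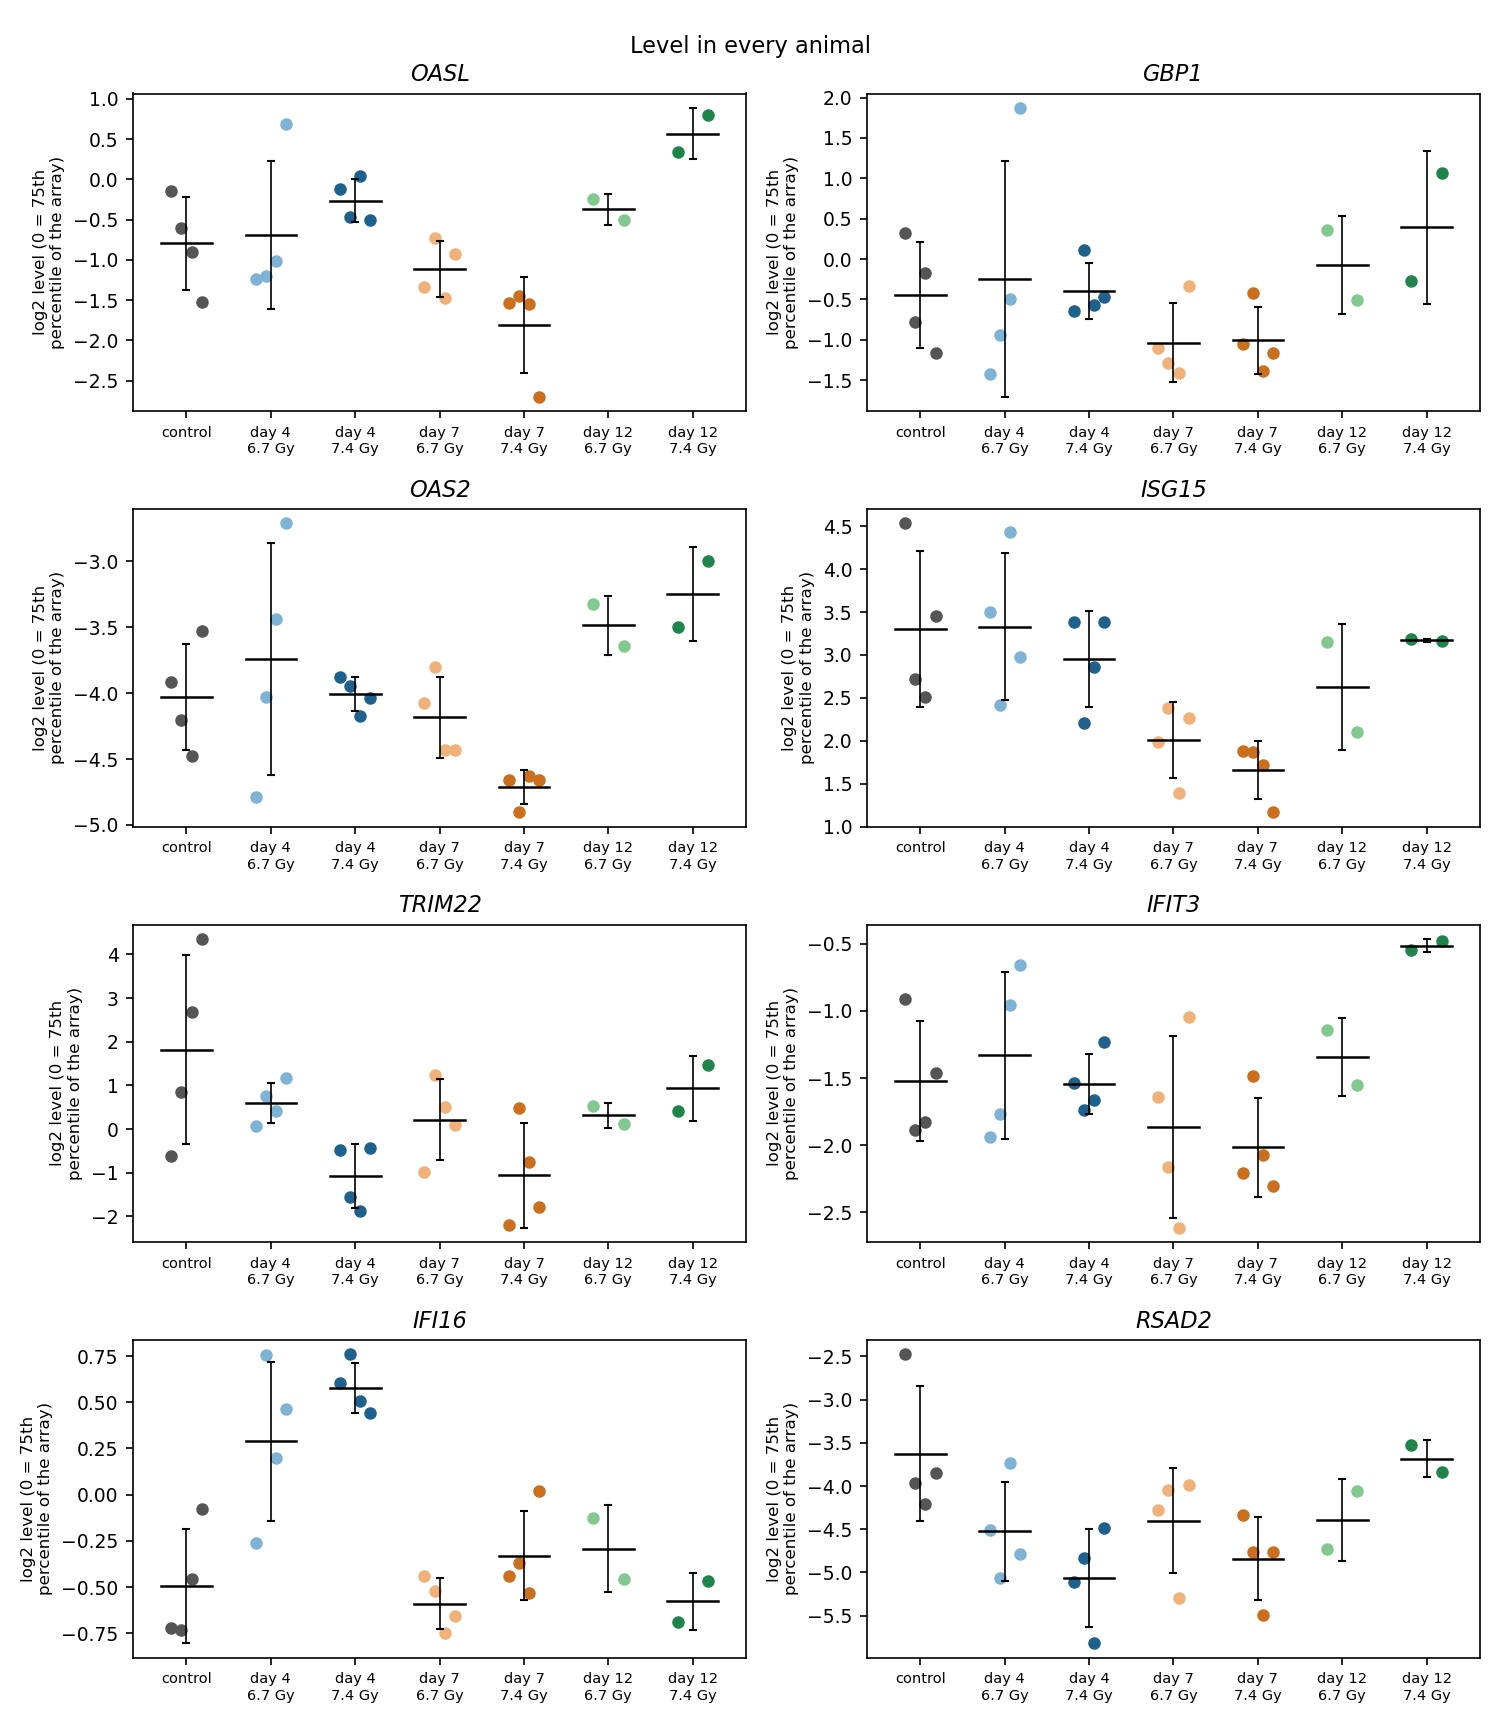
Level of 8 members in every animal (log2, 0 is the 75th percentile of the array), by group, with each group's mean as a line and its SD as a bar (n = 4 controls, 4 on day 4 and day 7 for each dose, 2 on day 12). OASL and OAS2 have all 4 animals of day 12 above all 8 of day 7, IFI16 is higher on day 4, and TRIM22 spans 4.96 in the controls.

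Among the nucleic acid sensors, IFIH1, DDX58 and DHX58, the cytoplasmic RIG-I-like receptors, had differences of 0.59, 0.49 and 0.42, and DDX60 of 0.85. The DNA sensor IFI16 had a difference of 0.03 ± 0.16 (SE). None of the 5 was called, and 2 were higher at an unadjusted p under 0.05, beside 8.35% of all probes. Among the 6 signalling and transcription factors, the differences ran from 0.30 for STAT2 to 0.66 for IFI35, with none called. The dimmer PARP14 probe lay above this range, at 0.81 (limma adjusted p 0.182). PARP9, an ADP-ribosyltransferase, lay between -0.56 and -0.26 on day 12 and between -1.25 and -0.74 on day 7, so that the days did not overlap, with a difference of 0.58 ± 0.14 (SE; adjusted p 0.066). IRF1 and IRF7, which switch on interferon genes and their targets, had differences of 0.60 and 0.53.

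Members that act at membranes had the smallest median of the roles, 0.20. IFITM3, which hinders fusion of viruses with endosomes, had a difference of 0.00 with an interval of -0.50 to 0.49, and its 3 other probes lay between -0.17 and -0.09. IFITM genes are near-identical copies, so their probes cannot be assigned with certainty to 1 gene. IFITM1 had a difference of 0.27 and the tether BST2 of 0.12. RSAD2, which makes a chain-terminating nucleotide, had 0.59. None of these 4 passed an unadjusted p of 0.05. Of the 6 further induced genes the differences ran from 0.07 for CMPK2 to 0.74 for SAMD9, with 0 called and 0 at an unadjusted p under 0.05. SAMD9 stood at -2.99, -2.76, 0.79 and -1.83 on day 12 and ran from -3.41 to 0.30 on day 7, so single animals weigh heavily in its difference. XAF1 lay between 1.096 and 1.32 on day 12 and between 0.80 and 1.08 on day 7.

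The 2 doses were then compared to see whether the later difference was shared. After 7.4 Gy the median difference of day 12 minus day 7 was 0.97, 32 of 36 members were above 0, beside 51.3% of all probes, and 22 were higher at an unadjusted p under 0.05, beside 3.87% of all probes, and 0 were lower, beside 3.81%. In 23 members both animals of day 12 lay above all 4 of day 7, beside 9.42% of all probes. After 6.7 Gy the median was 0.20, 31 were above 0, beside 58.2% of all probes, and 2 were higher at an unadjusted p under 0.05, beside 6.66%, with 0 lower, beside 4.49%. The median after 6.7 Gy was 0.60 with array position as a covariate, 0.31 with slide as a block and 0.12 without day 12 replicate 1. In 7 members both animals of day 12 lay above all 4 of day 7, beside 16.8% of all probes. At neither dose was a member called, where 0.00554% of probes were called higher and 0% lower after the higher dose, and 0.0194% higher and 0.0166% lower after the lower dose. The OASL difference was 2.38 ± 0.46 (SE; adjusted p 0.0834) after the higher dose and 0.74 ± 0.46 (SE; adjusted p 0.554) after the lower dose.

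The difference between the doses was tested itself. Its median over the members was 0.59, larger after 7.4 Gy in 30 of 36 members, beside 43.5% of all probes, but 0 members and 0 of all probes were called by limma. At an unadjusted p under 0.05, 5 members had a larger difference after the higher dose and 0 a smaller one, beside 2.02% and 2.78% of all probes. For OASL the difference between doses was 1.64 (interval 0.29 to 2.98, adjusted p 0.97). With 2 animals per dose on day 12 a difference between the doses was therefore not shown for any single member.

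Within slides, where a day 12 animal can be set against the day 7 animal of the same dose and slide, the median member difference was 0.60 on slide 3 and 0.01 on slide 4, both after 6.7 Gy. It was 0.76 on slide 5 and 0.84 on slide 6, both after 7.4 Gy. The number of members higher on day 12 was 34, 19, 30 and 34 of 36, beside 51.6% to 56.4% of all probes. Slide 4 thus showed no shift within the slide. In all 4 slides 12 of 36 members were higher on day 12, beside 15.4% of all probes, OASL by 0.42 to 2.25 and OAS2 by 0.78 to 1.91. Within position 4, the 4 arrays of day 12 were above the 2 of day 7 after 7.4 Gy by a median of 0.80, with 33 of 36 members higher, beside 53.6% of all probes.

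**Figure D3:**
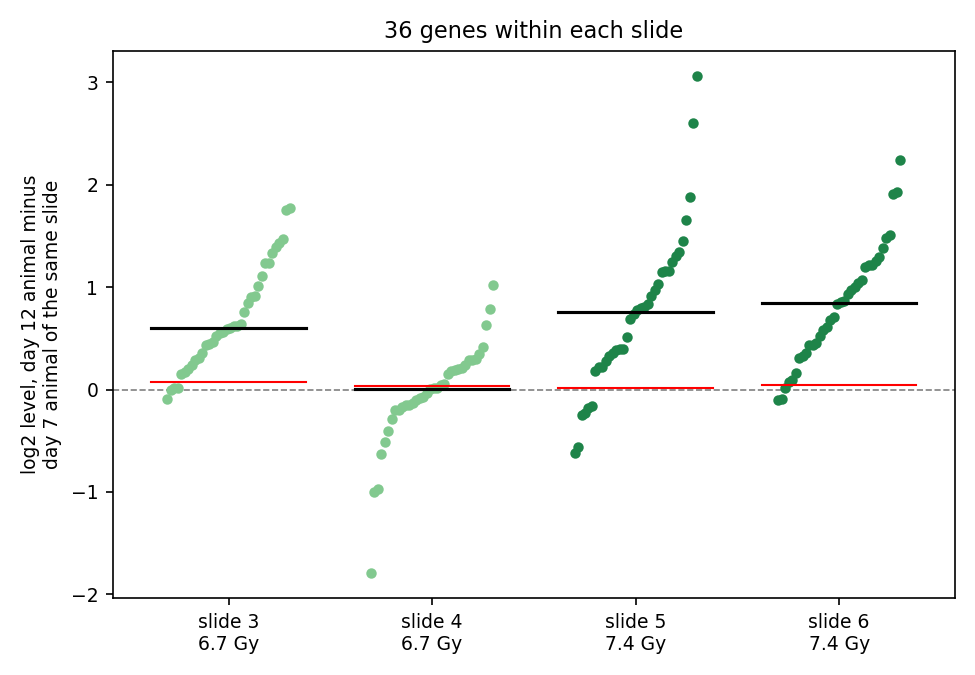
Difference between the day 12 animal and the day 7 animal on the same slide (log2, vertical axis) for the 36 members, sorted within each of the 4 slides that hold both days. Black lines are medians of the members and red lines medians of all tested probes. Slides 3, 5 and 6 have medians of 0.60, 0.76 and 0.84, and slide 4 has 0.01.

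Per animal, the members were summarised by the median of their deviations from the control mean. On day 12 it was 0.09 and -0.03 at the lower dose and 0.33 and 0.49 at the higher dose. On day 7 it was -0.13, -0.22, -0.69 and -0.10 after the lower dose and -0.35, -0.30, -0.46 and -0.54 after the higher dose, so every animal of day 12 was above every animal of day 7. On day 4 it ran from -0.33 to 0.49. The controls had 0.51, -0.11, -0.30 and -0.05, a range that holds all 4 animals of day 12. In control replicate 1, 28 of 36 members were higher than in each of the other 3 controls, where 27.6% of all probes were. The same control had a median of -1.21 over the smooth muscle markers, against 0.38 to 0.46 in the other 3, and of 0.43 over the enterocyte markers, against -0.27 to 0.09, and the part of these differences in its member levels was not tested. In 1 animal of day 4 after 6.7 Gy, replicate 4, 22 of 36 members were above the other 3 of its group, beside 30% of all probes, and 19 were above all controls, beside 25% of all probes.

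**Figure D4:**
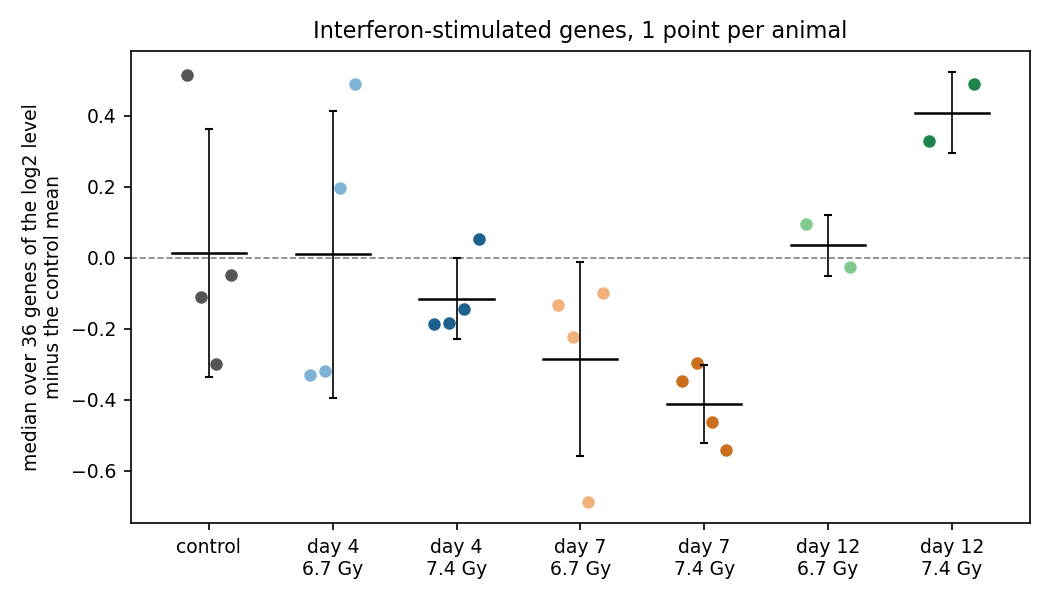
Median over the 36 members of the level minus the control mean (log2), 1 point for each animal, with the group mean as a line and the SD as a bar. The 8 animals of day 7 lie between -0.69 and -0.10 and the 4 of day 12 between -0.03 and 0.49, inside the range of the controls.

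Day 7 was compared with day 4 to place the low point. By the means of the controls and of each day, 25 of 36 members were lowest on day 7, beside 18% of all probes, and 19 were highest on day 12, beside 32.8%. The median difference of day 7 minus day 4 was -0.28 (-0.16 without day 4 replicate 4 after 6.7 Gy), beside 0.05 for all probes, with 7 of 36 members above 0, beside 56.8% of all probes. ISG15 was called lower, 1 of 36 members, where 0.41% of all probes were called lower, and no member was called higher, where 0.645% were. At an unadjusted p under 0.05, 11 members were lower and 0 higher, beside 12.6% and 17.2% of all probes. The day 7 animals are shared by this comparison and that of day 12 with day 7. Cell markers moved between these days too, and their part in the differences was not tested. Of the macrophage and monocyte markers 6 of 7 were lower on day 7 at an unadjusted p under 0.05, with a median of -0.48 and summed levels of 35.5 to 68.3 on day 4 and 31.8 to 46.5 on day 7. Of the T and NK cell markers 4 of 9 were lower and 1 higher, with a median of -0.30 and summed levels of 44.5 to 85.0 and 40.2 to 55.8, and the granzyme gene GZMA was called lower (-1.19, adjusted p 0.0498). Over the 7 enterocyte markers the median was 0.37, with VIL1 called higher.

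ISG15 stood at 3.49, 2.42, 4.43 and 2.97 on day 4 after 6.7 Gy and at 3.38, 2.20, 2.86 and 3.39 after 7.4 Gy. On day 7 it had fallen to 1.99, 2.39, 1.40 and 2.26 after the lower dose and to 1.88, 1.86, 1.72 and 1.17 after the higher dose. All but 1 of the day 4 animals were above all 8 of day 7. The difference was -1.31 ± 0.30 (SE; interval -1.94 to -0.68), which is 2.48-fold lower, with a limma adjusted p of 0.0083, and it was called in all 27 alternative settings. Array position was not among these settings, since the arrays of day 4 and day 7 share no position. OASL (-0.98, adjusted p 0.019), IFI16 (-0.89, adjusted p 0.00041) and MX2 (-0.73, adjusted p 0.0318) passed the adjusted p with changes under 2-fold. The dimmer IFI16 probe gave -0.64 and did not pass (limma adjusted p 0.0947), and neither did the dimmer MX2 probe, at -0.28 (limma adjusted p 0.136). The probes of TRIM22 disagreed as well, since its 2 dimmer probes each had a difference of -0.81 (adjusted p 0.00778 and 0.0114) and the brightest one of -0.18 (adjusted p 0.853).

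Against the unirradiated controls few members passed the test on any day. On day 4 after 6.7 Gy 0 of 36 were called, while 0.595% of all probes were called higher and 0.382% lower. The median of 0.03 had no stable sign, since it was below 0 in 6 of 20 alternative settings and -0.36 with array position as a covariate. At an unadjusted p under 0.05, 2 were higher and 3 lower, beside 9.13% and 13.7% of all probes. On day 4 after 7.4 Gy 1 was called higher and 2 lower, beside 1.6% and 0.734% of all probes, with a median of -0.11, which was -0.94 with array position as a covariate and 0.05 without control replicate 1, and which ran from -0.20 to -0.17 without day 4 replicate 4, control replicate 3 or control replicate 4 and was -0.05 with slide as a block. Cell markers differed in the same comparison, and their part was not tested. All 7 macrophage and monocyte markers had differences above 0, 2 of them called, with a per-animal median of 0.33 to 0.63 against -0.14 to 0.25 in the controls. All 3 B cell markers had differences below 0, 1 of them called, with -1.43 to -1.04 against -0.85 to 1.08. The enterocyte markers had -0.64 to -0.23 against -0.27 to 0.43, with 1 of 7 called lower. On day 7 no member was called at either dose. Of all probes, 0.0526% were called higher and 0.183% lower at the lower dose, and 0.114% and 0.454% at the higher dose. The medians were -0.23 and -0.33, and 4 and 11 members were lower at an unadjusted p under 0.05, beside 4.79% and 7.55% of all probes. Without control replicate 1 these medians were -0.13 and -0.20. At the lower dose the median was -0.37 without control replicate 3 and -0.08 without day 7 replicate 3. Per animal, the T and NK cell markers had -1.20 to -0.38 on day 7 against -0.33 to 0.35 in the controls. The macrophage and monocyte markers (-0.35 to 0.28 against -0.14 to 0.25) and the enterocyte markers (-0.39 to 0.08 against -0.27 to 0.43) overlapped the controls. The part of these cells on day 7 was not tested. On day 12 no member was called either, with medians of 0.01 and 0.42. The first had no stable sign, from -0.07 to 0.15 and below 0 in 5 of 17 alternative settings. Of all probes, 0.0332% were called higher and 0.0748% lower at the lower dose, and 0.0194% and 0.0249% at the higher dose. After 7.4 Gy 9 members were higher at an unadjusted p under 0.05 on day 12, beside 3.29% of all probes, and in 8 both animals lay above all controls, beside 8.43%.

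IFI16, the sensor of nuclear and cytoplasmic DNA, was the only member called higher than in the controls. IFI27 had a larger difference in means, 4.18 on day 4 after 7.4 Gy against 2.79 in the controls, but was not called. The IFI16 level was 0.60, 0.76, 0.51 and 0.44 on day 4 after 7.4 Gy and -0.72, -0.73, -0.45 and -0.08 in the controls. The groups did not overlap, and the difference of 1.07 ± 0.19 (SE; interval 0.68 to 1.47), 2.10-fold, had a limma adjusted p of 0.0030. After 6.7 Gy it stood at -0.26, 0.75, 0.20 and 0.46, a difference of 0.79 (adjusted p 0.0319) that is under 2-fold. The animals of days 7 and 12 lay between -0.75 and 0.02. The call of the higher dose was lost with array position as a covariate (difference 0.99, adjusted p 0.163) and with the methods' t-test (adjusted p 0.0593). Without control replicate 1 or 2 the difference was 0.999 and 0.994, just under 2-fold, as was the 0.99 with normexp background correction. The call was kept in 15 of 20 alternative settings.

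RSAD2, also called viperin, fell on day 4 after 7.4 Gy. Its level was -5.11, -4.83, -5.82 and -4.49 there and -2.48, -3.96, -4.21 and -3.85 in the controls, without overlap. In this irradiated group RSAD2 was well above background on only 3 of 4 arrays. The difference was -1.44 ± 0.39 (SE; interval -2.25 to -0.63; limma adjusted p 0.0329). After 6.7 Gy it stood at -4.51, -5.06, -3.74 and -4.79, and on day 7 it ran from -5.50 to -3.99. Control replicate 1 was the highest of the controls by over 1 unit, and without it the difference was -1.05 (adjusted p 0.123). The call was also lost without replicate 1 (adjusted p 0.0881) or replicate 3 (adjusted p 0.105) of the irradiated group. RSAD2 was called in 12 of 19 alternative settings, with differences from -1.96 with array position as a covariate (adjusted p 0.163) to -0.69 with normexp background correction (adjusted p 0.0333). Slide as a block (adjusted p 0.0762) and the methods' t-test (adjusted p 0.179) also ended the call.

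TRIM22 was called lower in the same comparison, at -0.47, -1.55, -1.87 and -0.43 against controls of -0.61, 0.84, 2.68 and 4.35. The groups overlapped, since 1 control lay within the irradiated range. The difference of -2.89 ± 0.78 (SE; interval -4.51 to -1.27; limma adjusted p 0.0316) rests on the brightest of 3 probes, and the mean of the 3 gave -0.26 (adjusted p 0.646). Without control replicate 4 it was -2.05 (adjusted p 0.0767), and without control replicate 3 it was -2.60 (adjusted p 0.0806). Leaving out replicate 1, 2 or 3 of the irradiated group ended the call too, with adjusted p from 0.0621 to 0.0867. ISG15 was lower than in every control in all 8 animals of day 7, with differences of -1.29 and -1.64 after the lower and the higher dose and adjusted p of 0.265 and 0.0735, so neither was called.

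**Figure D5:**
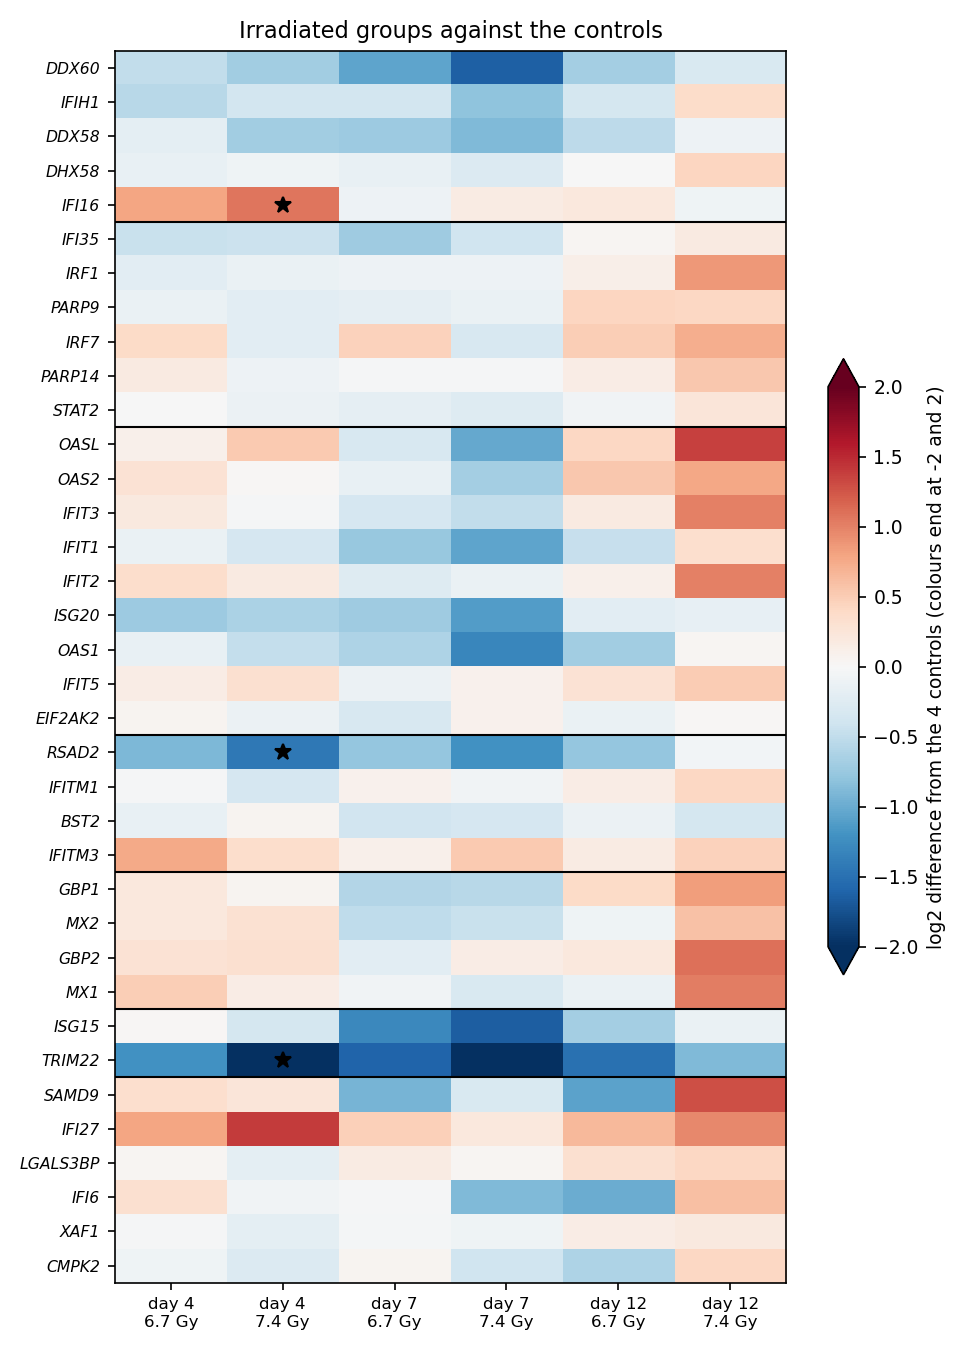
Difference of each irradiated group from the 4 controls (log2, colour; colours end at -2 and 2) for the 36 members, ordered by role with lines between roles. Stars mark the 3 calls, IFI16 higher and RSAD2 and TRIM22 lower on day 4 after 7.4 Gy. The columns of day 7 are mostly blue (medians -0.23 and -0.33) and that of day 12 after 7.4 Gy mostly red (median 0.42).

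Beyond the members, a further 86 genes of the pathway were listed, of which 63 have a probe and 59 were tested. Between day 12 and day 7 none was called, 27 were higher and 2 lower at an unadjusted p under 0.05, beside 8.35% and 6.06% of all probes, and the median difference was 0.30, beside 0.04 for all probes. TRIM21, an antibody receptor and ligase, and UBA7, the activating enzyme of ISG15, passed the adjusted p with differences of 0.66 (adjusted p 0.033) and 0.64 (adjusted p 0.026), under 2-fold. Of the interferons themselves, IFNG ran from -5.34 to -3.97 on day 12 and from -6.94 to -4.78 on day 7, a difference of 1.29 with an interval of -0.02 to 2.61 (adjusted p 0.354). IFNA2 had a difference of -0.29 (adjusted p 0.709). IFNG was well above background on 18 of 24 arrays and IFNA2 on 16, so their levels on the other arrays are not reliable. IFNB1, IFNK and IFNW1 were above background on 1, 0 and 10 of 24 arrays and were not tested, and IFNA1, IFNE and IFNL1 to IFNL3 have no probe with that symbol here. The type I receptor chains IFNAR1 and IFNAR2 had differences of -0.08 and -0.22, the gamma receptor chain IFNGR1 of 0.29 and the type III receptor chain IL10RB of 0.34, with none called.

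By list, the 6 tested interferon gamma targets had the largest median difference, 0.78, with 0 called. Over the 7 genes that restrain interferon signalling it was 0.32, over the 8 further kinases and transcription factors 0.25, over the 11 further sensors and adaptors 0.22 and over the 21 further interferon-stimulated genes 0.30. In the other comparisons 2 of the 59 genes were called, the endosomal RNA receptor TLR3, with a difference of -1.40 between day 4 after 7.4 Gy and the controls (adjusted p 0.038), where 0.734% of all probes were called lower, and IDO1, an enzyme of tryptophan breakdown, which fell by 1.30 from day 4 to day 7 (adjusted p 0.0373), where 0.41% were called lower. The TLR3 call was lost whichever of the 8 animals was left out (adjusted p 0.0506 to 0.120). On day 4 IDO1 ran from -0.48 to 3.76, and without replicate 4 after 6.7 Gy its difference was -0.83, under 2-fold. Leaving out 6 other animals, replicates 1 and 4 of day 4 after 7.4 Gy, replicates 1, 2 and 3 of day 7 after 6.7 Gy and replicate 3 of day 7 after 7.4 Gy, also ended the IDO1 call, with adjusted p from 0.0514 to 0.0733.

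Markers of cells that carry these genes were set beside the differences of day 12 minus day 7. The summed level of the 9 tested T and NK cell markers, in multiples of the 75th percentile, was 40.2 to 55.8 on day 7, 47.6 to 66.6 on day 12 and 49.1 to 79.1 in the controls. Of these 9 markers 8 had a difference above 0, 3 at an unadjusted p under 0.05 and 0 called, with a median of 0.34, while 55.7% of all probes were above 0, 8.35% were higher at an unadjusted p under 0.05 and their median was 0.04. Over the 7 tested macrophage and monocyte markers the median was 0.26, with sums of 31.8 to 46.5 on day 7 and 38.1 to 57.0 on day 12. For plasmacytoid dendritic cells only TCF4, GZMB and PLD4 were measured, with a median of -0.02 and sums of 32.6 to 42.6 and 33.8 to 51.6, and the defining markers CLEC4C, LILRA4 and IL3RA have no probe with that symbol here. HBB, the globin gene of red cells, was 3.37 higher on day 12 than on day 7 (limma adjusted p 0.00766). It was below the controls on both days. In multiples of the 75th percentile it was 0.0153 to 0.0487 on day 7, 0.123 to 1.15 on day 12 and 1.75 to 6.80 in the controls. The part of these cells in the differences of the members was not tested.

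In day 4 replicate 4 after 6.7 Gy, IFNG stood at -2.34, against -6.82, -6.52 and -4.93 in its group, and the 6 tested interferon gamma targets had a median of 3.72 above the control mean, against 0.13 to 0.74. The neutrophil markers had a median of 4.34 above the control mean in the same animal, against -0.61 to 1.11, and the enterocyte markers one of -1.73, against -0.73 to -0.22. GBP1 was 1.87 and OASL 0.68 there, both highest of their groups. Without this animal the median of the members on day 4 after 6.7 Gy against the controls was -0.12 and 0 members were called.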

How the data were processed

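Ileum RNA of 24 animals was hybridised to Agilent rhesus arrays, 1 per animal, and scanned with Feature Extraction 11.0.1.1. The scanner tables deposited by the authors hold processed intensity values for 45220 spots per array, and the deposited raw table holds the same intensities (equal within 1e-05 for 43553 probes). In the normalized table the authors deposited log2 values minus the 75th percentile of each array, centred on the median of each probe over the arrays, and this table served as an alternative. Here the log2 of the processed intensity minus the 75th percentile of the array over probes that are not controls was computed again from the scanner tables. Spots of 1 probe were averaged and outlier spots left out where another remained. Of 43603 probes, 36108 were tested, those marked well above background on all arrays of 1 group or more. No spot was saturated. The 75th percentile was 837.3 to 1330 intensity units.

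A mean for each of 7 groups was fitted with limma 3.58.1 in R 4.3.3, and contrasts were tested with Benjamini-Hochberg adjustment at 0.05 and a fold change of 2. The fit was tested on simulated data. Alternatives were normexp background correction with an offset of 50 (on spot medians, since spot means were not among the columns used here), quantile normalization, other filters, slide, position or replicate number as a covariate, the mean of a gene's probes, the authors' table, a trended robust variance, no fold limit, the methods' t-test with Benjamini-Hochberg, and leaving out each animal. Position could not be fitted for day 7 against day 4 or for days 7 and 12 against controls.

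The members and lists were chosen with earlier results of these data known. Values of every animal are given for members called between day 12 and day 7 or against the controls, and for those with the largest differences of day 12 minus day 7 up to 6. Other members are given by role, and pathway genes where called or where they are ligands or receptors. 1 pathway gene is not reported here by name. OAS1, ISG20, PARP9 and XAF1 were singled out, and TRIM21, UBA7, TLR3, IDO1, GZMA, VIL1 and HBB named, after their values were seen. Leaving out animals for TLR3 and IDO1 was chosen after seeing the data.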

Additional observations from a re-analysis of the deposited data

Results flagged for a closer look

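In 9 of 180 sets of 4 animals (36 members in 5 groups), 1 animal lay so far from the other 3 that its gap exceeded 0.829 of the range of the set. Chance gives about 1 in 20 such sets, which is as many as were found. On day 7 after 7.4 Gy there were 5: DDX60 in replicate 3 (-3.42, others -2.36 to -2.31), IRF7 in replicate 3 (2.45, others 1.97 to 2.03), IFIT1 in replicate 4 (-1.29, others -0.99 to -0.95), OAS2 in replicate 2 (-4.90, others -4.66 to -4.63) and OASL in replicate 4 (-2.70, others -1.55 to -1.45). On day 4 there were 3. OASL in replicate 4 after 6.7 Gy stood at 0.68 (others -1.24 to -1.01), ISG20 in replicate 1 after 7.4 Gy at 1.52 (others 0.04 to 0.26) and IFI27 in replicate 2 after 7.4 Gy at 3.25 (others 4.47 to 4.53). In the controls IRF7 in replicate 4 stood at 1.93 (others 2.52 to 2.64). Without replicate 4 of day 7 after 7.4 Gy the OASL difference of day 12 minus day 7 was 1.41 (limma adjusted p 0.0764).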

How the results depend on the processing

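Of 227 alternative values of the member medians 223 stayed within the spread of 1 SD between animals. Of 230 alternative values of named members none changed direction and 34 lost their call. The values of GBP1, OAS2, ISG15, TRIM22 and IFIT3 for day 12 against day 7 had no call to lose. The OASL call was kept in 10 of 24 settings and the ISG15 call of day 7 against day 4 in 27 of 27. On day 4 after 7.4 Gy, calls were kept in 15 of 20 settings for IFI16, 12 of 19 for RSAD2 and 12 of 20 for TRIM22. The single call between day 12 and day 7, OASL, became 0 with no filter on dim probes (limma adjusted p 0.0666), slide as a block (0.0914), array position as a covariate (0.200), the replicate block (0.165) and the methods' t-test (0.0959). Without the filter more probes were tested, and the cause of these losses was not tested. Calls from day 4 to day 7 numbered 2 with slide as a block (OASL and ISG15) and 4 without a fold limit. Against controls, day 4 after 6.7 Gy gave 1 call (IFI16) without a fold limit, and day 4 after 7.4 Gy gave 0 with array position as a covariate and with the methods' t-test. Array position moved the member median to 0.60 for day 12 against day 7 after 6.7 Gy, to -0.36 for day 4 after 6.7 Gy and to -0.94 for day 4 after 7.4 Gy against controls, and within slide 4 the median of day 12 minus day 7 was 0.00967. Leaving out 1 animal gave 0 to 1 calls between day 12 and day 7, 1 to 2 between day 7 and day 4, 0 to 1 for day 4 after 6.7 Gy (IFITM3 without its replicate 1), 1 to 3 for day 4 after 7.4 Gy and 0 to 1 for day 7 after 7.4 Gy (TRIM22 without control replicate 1, ISG15 without control replicate 3). The median of day 12 minus day 7 ran from 0.01 to 0.84. Over all probes, 32 were called higher and 9 lower between day 12 and day 7. With array position this became 4 higher and 8 lower, with normexp 14 and 0, with quantile normalization 36 and 21, with the replicate block 16 and 2, with the methods' t-test 22 and 5 and without a fold limit 58 and 46. The replicate numbers share no stated source, and deviations of animals with the same number correlated at -0.26 to 0.36, so the replicate block was not used for the reported values and changed no call of another comparison. Signal over background limited RSAD2, which was not well above background on 1 of 24 arrays, and IFI44L, which was not tested. For RSAD2 this array belongs to day 4 after 7.4 Gy, the group in which it was called lower.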

Other observations

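SAMD9, a gene of the poxvirus restriction family, had 4 animals apart from the rest, at 0.79 (day 12 after 7.4 Gy), 0.53 (day 4 after 7.4 Gy), 0.31 (day 4 after 6.7 Gy) and 0.30 (day 7 after 7.4 Gy), while the next animal stood at -1.08. Over all members the control animals spread more than over all probes, with a median range from the lowest to the highest control of 0.95 beside 0.54. The widest control ranges were those of TRIM22 (4.96) and IFI6 (4.26).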
